A study of Bos taurus with 30 samples.

Results

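The striated muscle miRNAs were taken from the table of mature miRNAs of the bovine anterior pituitary by name alone. All names of the miR-1, miR-133, miR-206, miR-208 and miR-499 families were taken, whatever letter or arm followed the number, which gave 8 of 1030 names, bta-miR-1, bta-miR-133a, bta-miR-133b, bta-miR-133c, bta-miR-206, bta-miR-208a, bta-miR-208b and bta-miR-499. All calves were Holstein-Friesian bulls, and each gave 1 library of small RNA from bulk anterior pituitary at 12 weeks of age. From 2 weeks of age the 15 calves of the HI group had been given 1.5 kg of milk replacer per day with concentrate ad libitum. The 15 calves of the MOD group had daily been given 0.5 kg of milk replacer and no more than 0.5 kg of concentrate. The animals had been bought from several dairy farms, and the farm of each calf is not in the labels. Calves are numbered here within each diet in the order of the sample records, and the number is a name only.

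These miRNAs are known for their work in skeletal and heart muscle. In mammals miR-1 is made from the same primary transcripts as miR-133a, and miR-206 from the same transcript as miR-133b. miR-1 and miR-206 promote the differentiation of myoblasts, whereas miR-133a and miR-133b are tied to their proliferation and to ion channels and signalling of muscle cells. miR-208a, miR-208b and miR-499 lie in introns of myosin heavy chain genes, and are known for their part in the choice between fast and slow, or between fetal and adult, myosins. In the RefSeq table of the bovine genome (assembly ARS-UCD2.0, used for names and neighbours only), MIR208A lies inside MYH6, MIR208B inside MYH7 and MIR499 inside MYH7B. In the same table MIR1-1 lies beside MIR133A-1, MIR1-2 beside MIR133A-2, and MIR206 beside MIR133B. The pituitary is not a striated muscle, so levels are set below beside markers of its own cells.

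Reads placed on miRNAs ranged from 6650492 to 11086524 per library, with a median of 8764579. Values are CPM, the reads of a miRNA relative to all reads on miRNAs of its library, scaled by TMM factors that correct for differences in composition. Where no read was seen, up to 3 reads remain possible, which in these libraries stand for 0.266 to 0.419 CPM. This bound, and the intervals given below, cover counting error only. The list of pituitary endocrine miRNAs (miR-375, miR-7, miR-141, miR-200a, miR-200b and miR-200c) summed to 183429 ± 25849 CPM (SD, n = 30), which was 18.3% of the values. The 8 striated muscle miRNAs together summed to 78.3 ± 20.7 CPM (SD, n = 30), or 0.00782% of the values. In bulk tissue, fewer cells of a type and less RNA per cell cannot be told apart.

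Of the 8 names, 5 had more than 3 reads in at least 1 library and 3 had at most 1 read in any library. On the CPM scale the order of mean levels was miR-499, miR-208b, miR-133a, miR-133b and miR-208a. miR-499 was above miR-208b in 28 of 30 calves, miR-208b above miR-133a in 27, and miR-133a above miR-133b in all 30. miR-133b was above miR-208a in 19 calves and below it in 11, so this last pair of neighbours did not keep an order from calf to calf. The order is one of reads, and the efficiency with which each small RNA enters a library was not measured.

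**Figure D1:**
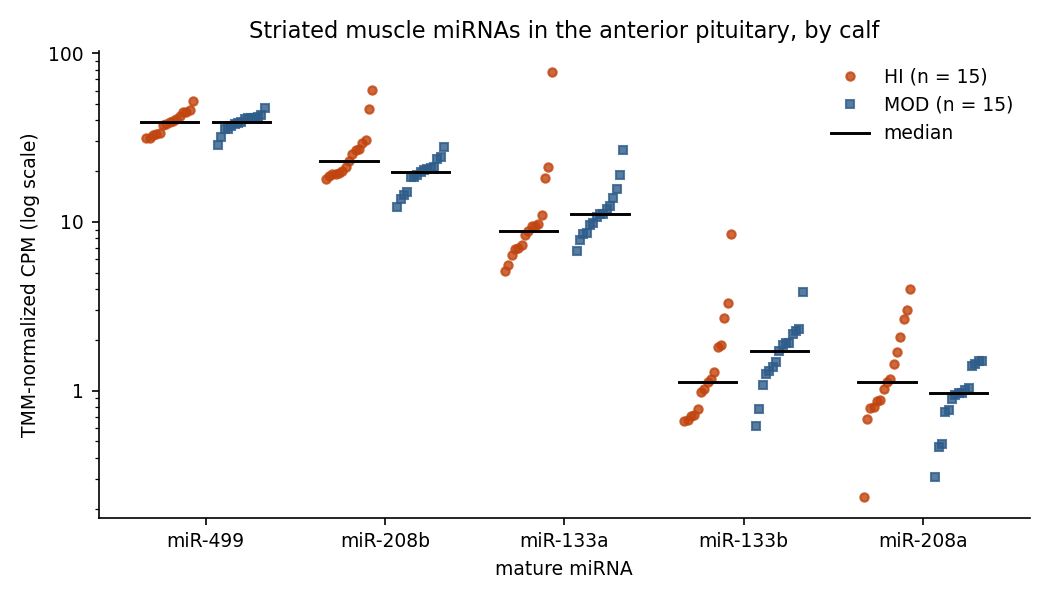
TMM-normalized CPM on a log scale (vertical axis) of the 5 striated muscle miRNAs with more than 3 reads in a library (horizontal axis), with 1 point per calf, HI calves as circles (n = 15), MOD calves as squares (n = 15) and a black line at each median. miR-499 stays within 28.6 to 51.9 CPM, whereas single HI calves stand far above the rest for miR-133a, miR-133b and miR-208b.

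miR-499, which is carried by MYH7B, was the most abundant of the set and the least variable. Its level was 38.9 ± 5.31 CPM (SD, n = 30), from 223 to 504 reads per library, and the highest calf was 1.82 times the lowest. The coefficient of variation was 13.6%, while counting alone would give 5.46%. In HI calves the lowest, median and highest levels were 31.3, 39.0 and 51.9 CPM, and in MOD calves 28.6, 39.0 and 47.2 CPM. The diets overlapped over nearly their whole range, with 1 HI calf above the highest MOD calf and none below the lowest.

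miR-208b, carried by MYH7, the gene of the slow myosin heavy chain, was next at 23.1 ± 9.59 CPM (SD, n = 30) and 102 to 569 reads per library. In HI calves its level was 17.9 CPM at the lowest, 23.0 at the median and 60.8 at the highest. In MOD calves these values were 12.3, 19.7 and 27.8 CPM. The highest values, 60.8 CPM in HI calf 2 and 46.5 CPM in HI calf 9, stood apart from the other 28 calves, and 4 HI calves were above the highest MOD calf. The other 11 HI calves lay within the MOD range.

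miR-208a, carried by MYH6, the other cardiac myosin heavy chain gene, was the scarcest member with reads in every library, at 1.23 ± 0.808 CPM (SD, n = 30) and 2 to 45 reads. In HI calves it was 0.236 CPM at the lowest, 1.12 at the median and 3.99 at the highest. In MOD calves it was 0.307 CPM at the lowest, 0.966 at the median and 1.50 at the highest. Although 5 HI calves were above every MOD calf, the lowest calf of all was also an HI calf. More than 3 reads were present in 14 of 15 libraries of each diet.

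The spread of miR-133a was set largely by 1 calf. Its level was 13.2 ± 13.1 CPM (SD, n = 30), from 54 to 670 reads per library, and the highest calf was 15.0 times the lowest. In HI calves the lowest, median and highest levels were 5.15, 8.81 and 77.3 CPM. In MOD calves they were 6.76, 11.1 and 26.7 CPM. A single library, HI calf 1, held the highest value, with a 95% Poisson interval of 71.6 to 83.4 CPM, and MOD calf 5 followed at 26.7 CPM. Without HI calf 1 the HI mean fell from 14.1 ± 18.0 (SD, n = 15) to 9.60 ± 4.62 CPM (SD, n = 14), against 12.2 ± 5.11 CPM in MOD calves (SD, n = 15), so the order of the diet means turned with this library.

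miR-133b, which differs from miR-133a by little in mammals, had 1.77 ± 1.49 CPM (SD, n = 30) and 6 to 73 reads per library. In HI calves it was 0.665 CPM at the lowest, 1.13 at the median and 8.43 at the highest. In MOD calves it was 0.615 CPM at the lowest, 1.73 at the median and 3.86 at the highest. The highest value was again in HI calf 1 and the next in MOD calf 5. As the sequences are close, counting could split reads of one between both names, and the values of miR-133b are uncertain to that extent.

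The partners of the miR-133 miRNAs were close to absent. miR-1 had 1 read in all, in HI calf 2, and miR-206 had 1 read in all, in HI calf 7. bta-miR-133c had 0 reads in every library. miR-1 thus made up 1 of the 3414 reads of miR-1 and miR-133a together, or 0.0293% (exact Clopper-Pearson 95% interval 0.000742 to 0.163%). miR-206 made up 1 of the 460 reads of miR-206 and miR-133b, or 0.217% (0.00550 to 1.21%). Even HI calf 1, with 670 reads of miR-133a, had 0 reads of miR-1, which allows a share of up to 0.448%, and 0 reads of miR-206. No reference for the efficiency of miR-1 and miR-206 in these libraries was at hand, such as a muscle sample made the same way.

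The first comparison asks whether the plane of nutrition changed the level of these miRNAs. It used limma on log2(CPM + 1) over 419 miRNAs that passed a filter on low counts, with FDR < 0.1 and a fold change above 1.5 as thresholds. Of the 8 striated muscle miRNAs 4 passed the filter (miR-133a, miR-133b, miR-208b and miR-499), and 0 of these 4 passed both thresholds, where 2 of 419 (0.477%) passed them over all miRNAs tested. At FDR < 0.1 alone the count was again 0 of 4, against 15 of 419 (3.58%). Of the 4, 1 (miR-208b) had an unadjusted p under 0.05 in limma, where 53 of all 419 tested miRNAs did. With edgeR and DESeq2 on whole reads, 0 of 4 also passed both thresholds.

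miR-208b had the largest diet difference of the 4. Its mean was 27.0 ± 11.9 CPM in HI calves (SD, n = 15) and 19.3 ± 4.20 CPM in MOD calves (SD, n = 15), and 10 of 15 HI calves were above the MOD median. The log2 fold change of HI over MOD, taken on log2(CPM + 1) as all those below, was 0.41 (SE 0.14, 95% interval 0.11 to 0.70), or 1.32-fold, with p = 0.00878 and FDR = 0.175 in limma. The difference did not pass the FDR threshold, and it ranked at place 21 of 419 by p. In tests on reads the FDR was under 0.1 while the fold change stayed under 1.5, at 0.49 on the log2 scale in edgeR's quasi-likelihood test (FDR = 0.0965) and at 0.48 in DESeq2 (FDR = 0.0637). Without HI calf 2, the HI mean was 24.6 ± 7.60 CPM (SD, n = 14), the log2 fold change 0.32 and FDR = 0.224 in limma.

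**Figure D2:**
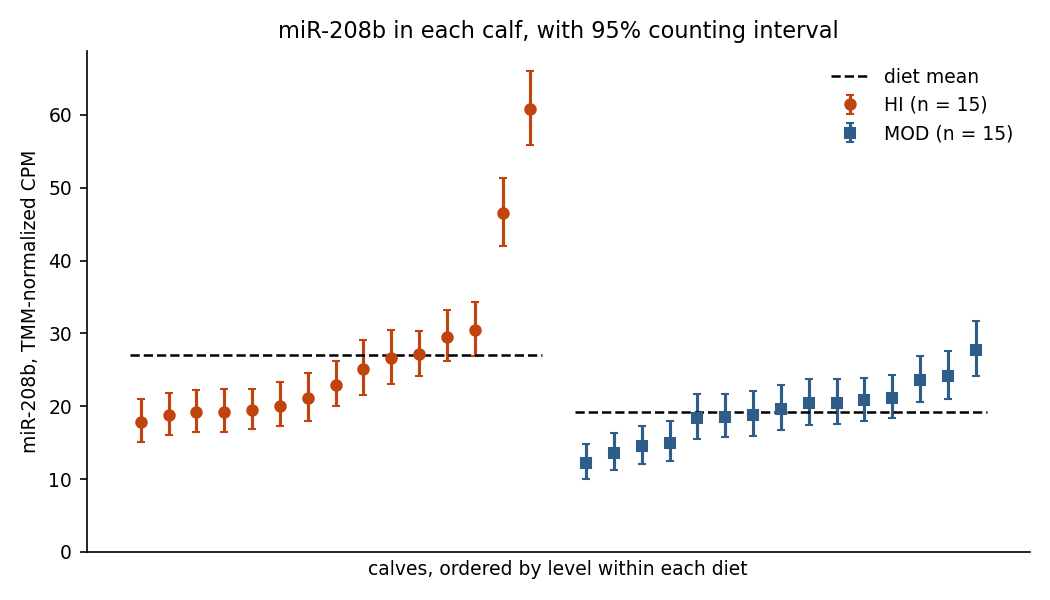
miR-208b in TMM-normalized CPM (vertical axis, from 0) in each calf, ordered by level within its diet (horizontal axis), with HI calves as circles, MOD calves as squares, bars for the 95% Poisson counting interval and a dashed line at each diet mean. HI calves 2 and 9, at 60.8 and 46.5 CPM, lie above all others, and the lower HI calves overlap the MOD calves.

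Sets of label numbers were looked at one by one for miR-208b. The digits of the calf labels fall into 4 ranges, of which only the one with 78 after the first digit held enough calves of each diet for a test. Among its 16 calves (8 HI, 8 MOD) the log2 difference was 0.30 (exact two-sided permutation test, p = 0.159). A further split, into 21 lower and 9 highest label numbers, was first drawn from another miRNA, and the labels give no reason for it. Among the 21 calves with the lower label numbers (10 HI, 11 MOD) the log2 difference was 0.54 (two-sided permutation test, p = 0.00966). Among the other 9 calves, those at the top of the label numbers (5 HI, 4 MOD), it was 0.10 (exact two-sided permutation test, p = 0.571). Whether the difference itself varied between these sets was not tested. With the label range as a block in limma the log2 fold change was 0.38 and FDR = 0.349. Whether the label ranges stand for farms is not given in the sources used here.

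The other tested members differed by less. miR-499 had a log2 fold change of 0.01 (SE 0.07, FDR = 0.984 in limma), and its 95% interval of -0.14 to 0.16 corresponds to 0.906-fold to 1.12-fold. miR-133a had -0.14 (SE 0.26, FDR = 0.920) with a 95% interval of -0.66 to 0.38. miR-133b had -0.09 (SE 0.19, FDR = 0.930) with a 95% interval of -0.49 to 0.30. The intervals of the miR-133 miRNAs were wide, and that of miR-133a reached beyond a fold change of 1.5 downwards. The sign of miR-133a depended on the test, since its log2 fold change was 0.20 in edgeR's quasi-likelihood test and -0.35 in DESeq2, which replaced 1 count of miR-133a, that of HI calf 1, by a fitted one. The log2 fold change of miR-133b turned to 0.071 and 0.068 in these tests.

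miR-208a did not pass the filter. In the limma fit with no filter on low values, over 840 miRNAs, its log2 fold change was 0.27 (SE 0.15, FDR = 0.731; 95% interval -0.04 to 0.59). Mean levels were 1.50 ± 1.03 CPM in HI calves (SD, n = 15) and 0.963 ± 0.378 CPM in MOD calves (SD, n = 15), and for the means of log2(CPM + 1) p was 0.0946 in a permutation test (two-sided). At this level the pseudocount of 1 CPM understates a change. In edgeR's quasi-likelihood test on reads with no filter the log2 fold change was 0.65, with unadjusted p = 0.0289 and FDR = 0.428, so it did not pass.

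Members also differed in how far calves spread. The SD of log2(CPM + 1) over the 30 calves was 0.73 for miR-133a, higher than that of 95.2% of the 419 tested miRNAs, and 0.55 for miR-133b, at 91.6%. It was 0.45 for miR-208b, at 88.5%, and 0.19 for miR-499, at 24.3%. Counting error adds more to the SD of low miRNAs such as miR-133b than to that of miR-499. Without HI calf 1 the coefficient of variation of miR-133a was 45.4% rather than 99.1%.

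**Figure D3:**
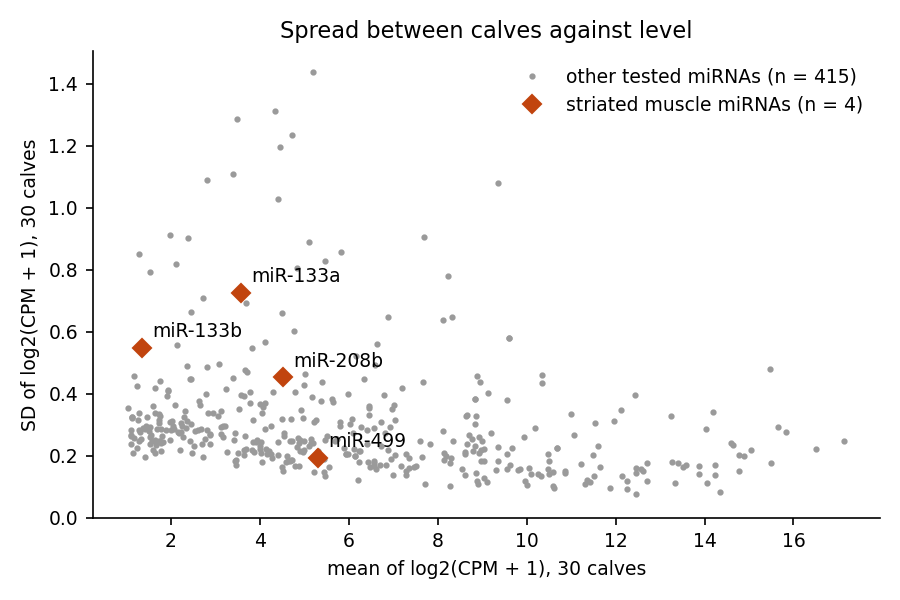
SD of log2(CPM + 1) over the 30 calves (vertical axis) against its mean (horizontal axis) for the 4 tested striated muscle miRNAs (diamonds) and the other 415 tested miRNAs (grey points). miR-133a, miR-133b and miR-208b lie above most points at their level, and miR-499 lies among the lower ones.

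A further question is whether calves with more of one striated muscle miRNA also had more of the others. Among the 10 pairs of the 5 detected members, miR-133a and miR-133b were the only pair that passed over all 30 calves after Benjamini-Hochberg adjustment. For them Pearson's r on log2(CPM + 1) was 0.923 and Spearman's rho 0.880 over 30 calves (two-sided permutation test, p = 1e-05 for both, the smallest that the resamples can give, adjusted p = 0.0001). Within diets r was 0.975 in HI and 0.750 in MOD calves (rho 0.921 and 0.661, the latter with an adjusted permutation p of 0.0841), and it was 0.825 without the 2 calves farthest from the median of miR-133a. Within the 21 lower and the 9 highest label numbers it was 0.921 and 0.868. Over all calves the remaining 9 pairs had r from -0.337 (miR-208a with miR-499) to 0.400 (miR-133b with miR-208b), and the lowest adjusted p among them was 0.167. Within HI calves miR-133b with miR-208b passed by rho (0.661, adjusted permutation p = 0.044) but not by r (0.615, adjusted permutation p = 0.127).

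The ratio of miR-133b to miR-133a varied no more between calves than counting error gives. miR-133b made up 459 of 3872 reads of the pair, or 11.9% (exact Clopper-Pearson 95% interval 10.9 to 12.9%), and the spread of this share between calves gave a chi-square per degree of freedom of 0.892, where counting error alone gives about 1. The lowest share was 7.69% and the highest 20.6%, and in HI calf 1, at 8.05 times the median miR-133a of the other calves, miR-133b was at 6.43 times theirs. How far a split of reads between these close names enters this share, or the correlation of the pair, was not tested. With all miR-133 names summed into 1 value the log2 fold change between diets was -0.16 (limma, FDR = 0.916).

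The share of miR-208a among miR-208 reads spread more between calves than counting error gives. miR-208a made up 325 of 6402 reads of the pair, or 5.08% (exact Clopper-Pearson 95% interval 4.55 to 5.64%), with a chi-square per degree of freedom of 4.01. It was 0.504% in HI calf 9, which had 2 reads of miR-208a beside 395 of miR-208b, and 12.8% in HI calf 12, with 45 reads of miR-208a. HI calf 2, highest in miR-208b with 569 reads, had 11 of miR-208a. The correlation of the pair did not pass (r = 0.243, rho = 0.353, adjusted p = 0.388 and 0.280, two-sided permutation test). Likewise miR-208b and miR-499, both from myosin genes of slow muscle, had r = 0.177 and rho = 0.117 (adjusted p = 0.583 and 0.877, two-sided permutation test).

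**Figure D4:**
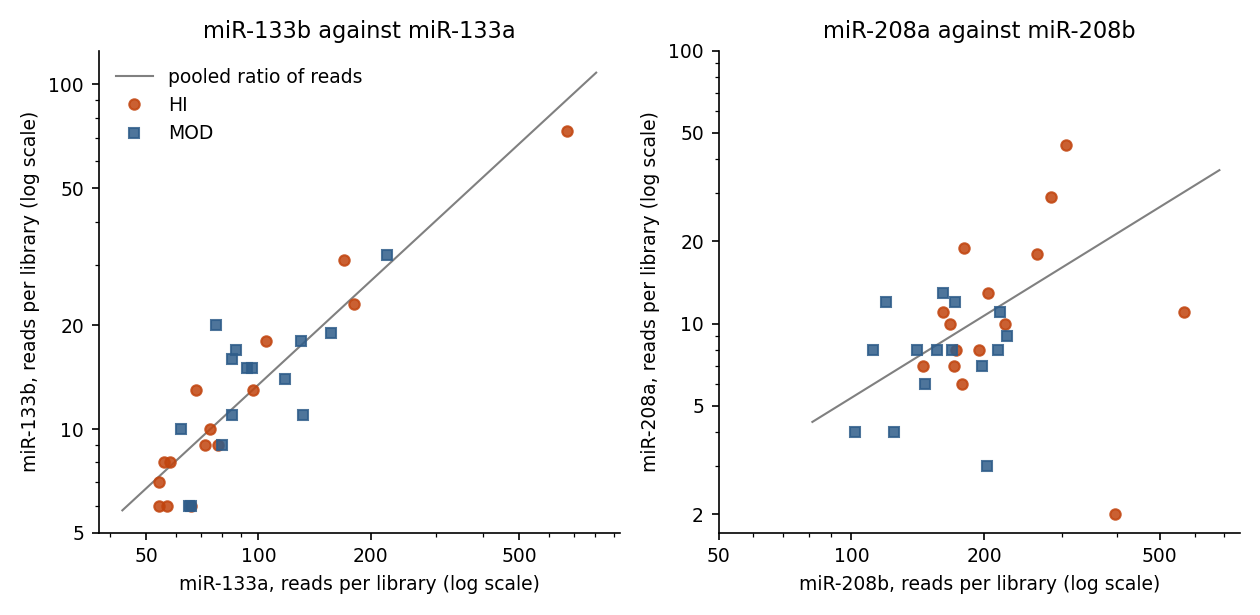
Reads per library on log scales of miR-133b against miR-133a (left) and of miR-208a against miR-208b (right), with 1 point per calf, HI calves as circles and MOD calves as squares, and a grey line at the ratio of the reads pooled over all calves. The miR-133 points follow the line from 54 to 670 reads of miR-133a, whereas the miR-208 points scatter on both sides of it.

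The calves high in miR-133a were compared with markers of other cells that the dissected tissue could hold. miR-143 and miR-145, markers of smooth muscle and pericytes, are made from 1 transcript. Their sum was 49181 ± 27275 CPM (SD, n = 30), with a range of 31682 to 182221 CPM in HI calves and of 32950 to 75574 CPM in MOD calves, and the highest value was that of HI calf 1. Nearly all of this sum was miR-143, at a mean of 48968 CPM. The 15 relations of miR-133a, miR-208b and miR-499 with 5 marker lists were not planned beforehand. Among them miR-133a with this list had the highest r, 0.862, with rho = 0.593 (adjusted p = 0.0003 and 0.0120, two-sided permutation test over 30 calves). Without HI calf 1 r was 0.701, without the 2 calves farthest on miR-133a 0.604, within HI 0.915 and within MOD 0.773. Spearman's rho within diets was 0.575 and 0.557 and did not pass after adjustment (p = 0.104 and 0.258, permutation test). Pearson's r was 0.912 among the 21 lower label numbers (rho = 0.799) but 0.0691 among the 9 highest (rho = 0.200).

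**Figure D5:**
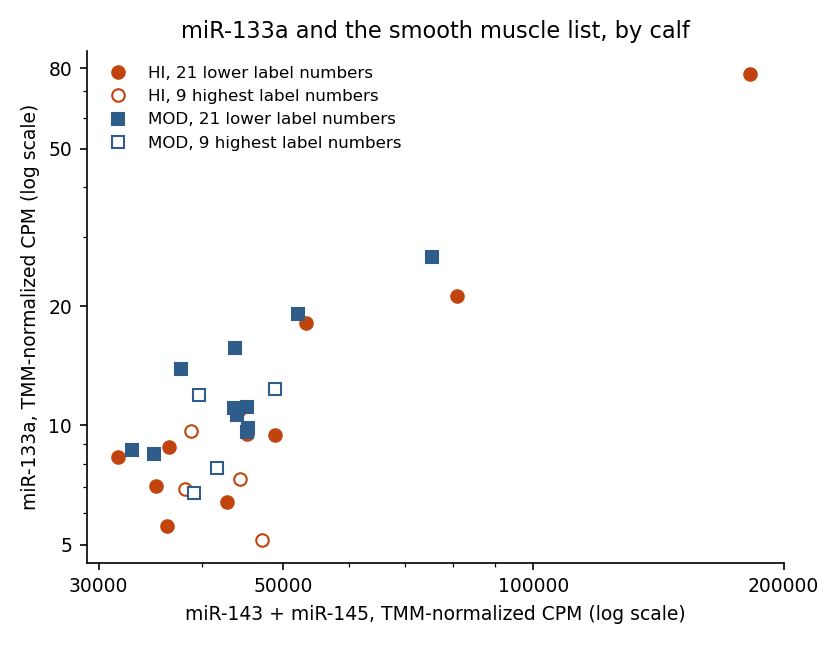
miR-133a (vertical axis) against the sum of miR-143 and miR-145 (horizontal axis), both in TMM-normalized CPM on log scales, with 1 point per calf, circles for HI, squares for MOD, filled points for the 21 lower and open points for the 9 highest label numbers. HI calf 1 lies at the upper right, apart from the other calves, and the open points show no trend.

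With the fibroblast list (miR-199a-3p, miR-199a-5p, miR-199b and miR-214) miR-133a had r = 0.595 (adjusted p = 0.00502) and rho = 0.489 (adjusted p = 0.0519, two-sided permutation tests), and without HI calf 1 r was 0.419, where it no longer passed (adjusted p = 0.154). The list summed to 516 to 1268 CPM in the HI group and to 444 to 796 CPM in the MOD group, and was highest in HI calf 1. In this setting the other 13 relations, those of miR-133a with the pituitary endocrine, red blood cell and neural lists and all those of miR-208b and miR-499, did not pass. With total reads as the scaling 2 of them passed by r, miR-133a with the endocrine list (r = -0.561, adjusted p = 0.00690) and miR-208b with the fibroblast list (r = 0.479, adjusted p = 0.0277, permutation tests), though neither passed by rho. HI calf 1 held the highest values of the 30 calves not only for miR-133a and miR-133b but also for miR-143 (181565 CPM, 4.17 times the median of the others), miR-145 (656 CPM), miR-214 (50.8 CPM), miR-451 (403 CPM) and miR-144 (12.7 CPM), of which miR-451 and miR-144 mark red blood cells. Both smooth muscle markers, 3 of the 4 fibroblast markers and 2 of the 3 red blood cell markers were at their highest in this calf. So were miR-155 (124 CPM) and miR-24-3p (1830 CPM), which are on none of these lists. How many of all miRNAs were at their highest in this calf was not counted. Its miR-375, a marker of endocrine cells, was the lowest of all at 103334 CPM, but the other 5 endocrine markers were at 0.908 to 1.14 times the median of the other calves, and the sum of the list was 140832 CPM, where the lowest calf had 135346 CPM. miR-1 and miR-206 were at 0 in HI calf 1, as in nearly all calves, and its miR-499, at 39.0 CPM, was at place 16 of 30. Its miR-208b was at place 3, at 30.5 CPM. Between diets the median log2 fold changes of the endocrine, smooth muscle, fibroblast and neural lists ran from -0.04 to 0.20, beside 0.02 over all tested miRNAs. Members of the red blood cell list went both ways, from -0.27 (miR-486) to 0.55 (miR-451), and their sum averaged 17746 CPM in the HI group against 20912 CPM in the MOD group. The part of smooth muscle, fibroblast or red blood cells in the levels of the striated muscle miRNAs was not tested.

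The label number ranges were compared with an F test in limma with diet in the model. Of 419 tested miRNAs 1 (0.239%) passed FDR < 0.1, and 0 of the 4 tested striated muscle miRNAs did, with FDR from 0.970 to 0.998. None of the 4 had an unadjusted p under 0.05 in limma. With edgeR's quasi-likelihood test 0 of 419 passed, and 1 of the 4, miR-133a, had an unadjusted p under 0.05 (p = 0.0368, adjusted p = 0.904). How many of all tested miRNAs had an unadjusted p under 0.05 in the label range tests was not counted. miR-499 had means of 38.0 to 39.3 CPM in the 4 ranges, and miR-208b 20.3 to 26.5 CPM. For miR-133a the means ran from 10.3 to 25.6 CPM, where the highest belonged to the range of 4 calves that includes HI calf 1.

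Many miRNAs that act in muscle are widely expressed, and 21 of these were described beside the set. All 21 were tested, 1 was higher and 2 were lower in HI calves at FDR < 0.1 in limma, and 0 passed the fold change as well. Over all tested miRNAs 15 of 419 (3.58%) were past that FDR. miR-378, which lies in a gene of a coactivator of mitochondrial metabolism, was higher in HI calves (309 against 254 CPM, log2 fold change 0.28, SE 0.09, FDR = 0.0874 in limma). miR-29a, known for its action on collagen transcripts, was lower (2638 against 2914 CPM, log2 fold change -0.14, SE 0.04, FDR = 0.0365 in limma). miR-26a was lower too (54232 against 65414 CPM, log2 fold change -0.29, SE 0.09, FDR = 0.0613 in limma). The median log2 fold change of the 21 was -0.06, beside 0.02 over all 419 miRNAs.

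The miRNAs whose pattern over the 30 calves was most like that of miR-499 were miR-153 (rho = 0.650), miR-2483-5p (0.635), miR-335 (0.582), miR-296-5p (0.561) and miR-154b (0.546). Members of the set were left out of this ranking beforehand, and none of the miRNAs named is on the marker lists. Of these, miR-153 held a like rank correlation in both diets (0.632 in HI and 0.725 in MOD calves), while miR-335 had 0.825 in HI and 0.346 in MOD calves. For miR-133a the nearest were miR-140 (rho = 0.743), a miRNA known from cartilage and connective tissue, then miR-26a (0.627) and miR-214 (0.616), with miR-143 at place 5 (0.596). For miR-208b the nearest was miR-144, a red blood cell miRNA, with rho = 0.611 (0.539 within HI and 0.461 within MOD calves). With the sum of the red blood cell list miR-208b had r = -0.045 and rho = -0.176, which did not pass. That sum was nearly all miR-486, which ran from 10396 to 27356 CPM where the sum ran from 10578 to 27422 CPM. It therefore describes miR-486 rather than miR-144. The lists for miR-133a and miR-208b were drawn up after their values were seen, and all of these correlations are descriptions across libraries that share their depth and scaling.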

How the data were processed

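Small RNA of the anterior pituitary was sequenced in 30 libraries, 1 per calf, grouped by the diet in the labels (15 HI, 15 MOD). The authors trimmed adapters (cutadapt 2.6 per the submitters' processing notes), filtered reads by length and against other short RNA classes, and quantified known bovine miRNAs with miRDeep2 on ARS-UCD1.2. What they deposited is a normalized signal (CPM scaled by TMM factors), not raw counts. The size of 1 read was found from the spacing of low values, and at least 94.6% of values up to 50 reads per library were whole within 0.01 read. TMM factors recomputed from these reads differed by at most 1.13e-05. The recovery and the limma fit were tested on simulated data. No 2 libraries were copies (lowest chi-square per degree of freedom over 435 pairs, 74.6). Depth was 6650492 to 11086524 reads.

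limma 3.58.1 (R 4.3.3, trend) was run on log2(CPM + 1) of the 419 miRNAs passing edgeR's filterByExpr, with diet only, Benjamini-Hochberg adjustment over all tested, and the thresholds of the study's methods (FDR < 0.1, fold change > 1.5). edgeR 4.0.16 and DESeq2 1.42.0 on rounded reads, other scalings, filters, blocks and left-out calves were alternatives. Permutation tests were two-sided with 100000 resamples, exact below 10 values per group. The members and lists were chosen with earlier results of these data known, and the set of 9 label numbers was first drawn from another miRNA. The text names the members, the 5 miRNAs most like miR-499 and list members, and any other after its values were seen. Sequences were not used here.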

Additional observations from a re-analysis of the deposited data

How the results depend on the processing

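In all 44 alternative fits 0 striated muscle miRNAs passed both thresholds. At FDR < 0.1 alone 1 passed, miR-208b, in edgeR's quasi-likelihood test, edgeR's exact test, DESeq2 and with total reads as the scaling, and 0 in the other 40. Over all 419 tested miRNAs 21, 21, 24 and 18 passed that FDR in the settings named, in that order, against 15 in the main limma fit. For miR-208b the log2 fold change ran from 0.32 to 0.44 over the 30 fits that each left out 1 calf (FDR 0.110 to 0.280 in limma). Within the 21 lower label numbers, a set first drawn from another miRNA, it was 0.54 (two-sided permutation test, unadjusted p = 0.00966). Within the 9 highest it was 0.10 (exact two-sided permutation test, unadjusted p = 0.571). Over all calves the same permutation test gave an unadjusted p of 0.008. The difference of miR-133a reversed to 0.20 in edgeR's quasi-likelihood test, with and without a filter, and in its exact test, and over left-out calves it ran from -0.34 to -0.06. The difference of miR-133b reversed to 0.071 in the quasi-likelihood test (0.072 without a filter), 0.073 in the exact test and 0.068 in DESeq2, and ran from -0.23 to -0.03 over left-out calves. The difference of miR-499 reversed to -0.057 within the 9 highest label numbers, and ran from -0.021 to 0.030 over left-out calves. The cause was not tested. miR-208a kept its direction in 5 of 5 alternatives. The label range test passed no member in any alternative. Judged by Pearson's r, as are all relations below, the correlation of miR-133a with miR-133b passed in 7 of 7 (r from 0.750 to 0.975). By Spearman's rho it did not pass within MOD calves (rho = 0.661, adjusted permutation p = 0.0841). The relation of miR-133a with the smooth muscle list did not pass among the 9 highest label numbers (r = 0.0691). That with the fibroblast list did not pass within MOD (0.589), without the 2 farthest calves (0.450), without HI calf 1 (0.419) or among the 9 highest (0.302). Of the other 13 relations with marker lists 0 passed, but 2 did with total reads as the scaling, and 2 among the 9 highest label numbers, miR-208b with the fibroblast list (r = 0.844) and miR-499 with the neural list (r = -0.847). Of all 419 miRNAs, the count past both thresholds was 4 in edgeR's quasi-likelihood and exact tests and DESeq2, against 2 in limma, and 1 of 840 in the quasi-likelihood test with no filter. The paper states that age, weight, sire and farm were used to block the calves before diets were assigned. The labels do not give these blocks, so no analysis by them was possible. Replicate numbers here follow the order of the sample records and pair no calf of one diet with a calf of the other. Reads of miR-133b and miR-208a per library are few, which limits what can be seen for them, and the set of 4 tested members is small.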
